A study of Rattus norvegicus with 30 samples.

Results

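The genes described here encode intermediate filament proteins of glia (Vim, Gfap and Nes) and of neurons (Nefl, Nefm, Nefh, Ina and Prph). Every probe set annotated to exactly 1 of these 8 symbols was taken, which gave 11 probe sets of 7 genes, out of 8740 probe sets that are not array controls and 4736 genes with a probe set of their own. The glial genes had 3 probe sets (1 of Vim and 2 of Nes) and the neuronal genes 8, with Nefl, Nefh and Ina measured by 2 each. The annotation used here lists no probe set under Gfap alone, so Gfap has no value here. Of the 11 probe sets, 10 of the 7 genes passed the filter on dim signals and were tested, among 6303 tested in all. The other Nes probe set, rc_AI030685_s_at, stayed between a signal of 1.75 and 25.4 on the 30 arrays, under the filter level of 35.2.

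Total RNA of rat hippocampus was hybridised to Affymetrix arrays after kainate, a glutamate receptor agonist used to provoke seizures in rodents, or after phosphate-buffered saline (PBS). The 10 groups were kainate and PBS at 1, 6, 24, 72 and 240 h, with 3 arrays each, and the kainate effect at a time is the difference in mean log2 signal between kainate and PBS arrays of that time. Strain, sex, age, dose and route of injection are not given in the sources used here. The labels number the replicates without saying that they came from separate animals, and a p-value here therefore speaks of array-to-array spread alone.

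Intermediate filaments are ropes of coiled-coil proteins that give a cell its mechanical strength. In astrocytes GFAP is the main filament protein, vimentin is the filament protein of immature and reactive astrocytes, and nestin is that of neural progenitors, and vimentin is made by vascular, mesenchymal and activated microglial cells as well. In axons the light, medium and heavy neurofilament chains (Nefl, Nefm and Nefh) and alpha-internexin (Ina) form mixed filaments that set axon calibre, while peripherin (Prph) is known mainly from peripheral and motor neurons. A glial scar after brain injury is known for its rise in glial filament proteins.

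The promoters of the glial and the neuronal gene with a probe set that passed as higher, Vim at 24 h and Ina at 6 h, are shown as the 250 bases before the annotated start in RefSeq (GRCr8). The Vim window lies at chr17:81577011-81577260 and the Ina window at chr1:255837879-255838128, both on the plus strand, and capitals mark matches to the motifs searched.
Vim: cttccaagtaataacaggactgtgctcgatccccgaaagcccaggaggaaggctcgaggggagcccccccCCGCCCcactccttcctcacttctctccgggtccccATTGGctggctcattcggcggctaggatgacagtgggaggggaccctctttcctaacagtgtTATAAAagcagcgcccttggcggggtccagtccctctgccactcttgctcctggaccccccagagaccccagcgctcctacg
Ina: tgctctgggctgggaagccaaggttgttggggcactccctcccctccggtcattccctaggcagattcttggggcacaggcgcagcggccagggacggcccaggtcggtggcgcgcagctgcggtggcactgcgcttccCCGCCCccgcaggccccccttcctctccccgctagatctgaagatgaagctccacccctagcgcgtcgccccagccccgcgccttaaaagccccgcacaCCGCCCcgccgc
Both strands were searched for 5 motifs in all 33469 listed promoters of this length. The TATA box, spelled TATAAA, occurred in 12.9% of them. The CCAAT box occurred in 34%. The GC box, spelled GGGCGG, occurred in 30.5%. The AP-1 motif, spelled TGANTCA, occurred in 6.34%. The STAT motif, spelled TTCNNNGAA, occurred in 7.67%. No 2 of the matches in the printed windows overlap. The Vim window held a TATA box starting at -82, a CCAAT box on the minus strand at -144 and a GC box on the minus strand at -180. The Ina window held 2 GC boxes on the minus strand, at -111 and -12, and none of the other 4 motifs. Their GC contents were 62.4% for Vim and 70.8% for Ina, against a median of 51.2% over all promoters. RefSeq promoters were listed for 5 of the 8 genes. Among the 3 not printed, Nes had GC boxes at -54 and -43, Prph had a TATA box at -35 and a GC box at -28, and Gfap had none of the 5 motifs. Neither the AP-1 nor the STAT letters occurred in any of the 5 windows.

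The 12 arrays of 6 and 72 h were more alike than the 18 of 1, 24 and 240 h, with a median correlation of 0.954 within the 12, of 0.927 within the 18 and of 0.925 across. As signs of RNA integrity, the log2 ratios of 3 prime to 5 prime signal were 0.44 ± 0.10 (SD) on the 12 and 0.68 ± 0.15 on the 18 for beta-actin and 0.97 ± 0.24 and 1.40 ± 0.32 for hexokinase. For Gapdh they were −0.07 ± 0.06 and 0.01 ± 0.13. At 1 h the PBS arrays had a beta-actin ratio of 0.53 ± 0.21, near the 0.52 ± 0.07 of the PBS arrays of 6 h. The kainate arrays of 1 h had 0.80 ± 0.12, so the kainate effect at 1 h sets arrays of unlike mean ratio against each other. Each kainate effect is taken within a time and so within a set. Any change of an effect between neighbouring times crosses from 1 set to the other. For the label of hippocampus, all 11 annotated markers of hippocampal principal neurons lay above the filter level on each of the 15 PBS arrays, while of 9 markers of sensory and motor neurons outside the hippocampus 1 did so and 3 did so on none. Of 12 markers of neighbouring brain regions 6 lay above that level on every PBS array and 2 on none, and of 6 markers of choroid plexus and ependyma 2 did so on every and 2 on none.

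Vim, the only glial member that passed the test, rose at 24 h. Its signal was 1006, 1252 and 1216 on the kainate arrays, against 186, 206 and 200 on the PBS arrays. Every kainate array lay above every PBS array, by a wide gap compared with the spread within either group. The mean signal was 1158 ± 133 after kainate and 197 ± 10.3 after PBS (SD, n = 3 each). The log2 change was 2.55 ± 0.21 (SE, 95% interval 2.11 to 2.99), a 5.85-fold rise (limma adjusted p = 1.65e-09). Among the 6303 tested probe sets the Vim change at 24 h ranked 12 from the highest. With any of the 6 arrays of 24 h left out the log2 change stayed between 2.49 and 2.65, and the call held.

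Before and after that time Vim differed less. At 1 h the kainate arrays read 216, 214 and 129, against 206, 273 and 276 on PBS arrays, and the groups overlapped (log2 change −0.46 ± 0.21 SE, limma adjusted p = 0.483). At 6 h they read 265, 220 and 189 after kainate, against 150, 126 and 167 after PBS, with no overlap, yet the log2 change of 0.60 ± 0.21 missed the threshold (adjusted p = 0.136). It passed at 6 h when the fit used only the arrays of 6 and 72 h (adjusted p = 0.0363) or weighted the arrays (adjusted p = 0.0322). At 72 h the readings were 234, 175 and 198 after kainate, against 131, 151 and 146 after PBS, again without overlap and without passing (log2 change 0.50 ± 0.21, adjusted p = 0.739). At 240 h the kainate arrays read 119, 130 and 115 and the PBS arrays 152, 81.8 and 77.9. PBS replicate 1 lay above all 3 kainate arrays at that time, and the log2 change was 0.29 ± 0.21 (adjusted p = 0.615).

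Among the 10 group means of Vim, kainate at 24 h was the highest and its lowest array lay above every array of the next group, PBS at 1 h (252 ± 39.3 SD). The groups ranked next, in the order PBS at 1 h, kainate at 6 h, kainate at 72 h, PBS at 24 h, kainate at 1 h, PBS at 6 h and PBS at 72 h, each overlapped their neighbour in the order. Kainate at 240 h (121 ± 7.47) lay below PBS at 72 h (143 ± 10.3) without overlap, and PBS at 240 h was the lowest (104 ± 41.8).

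**Figure D1:**
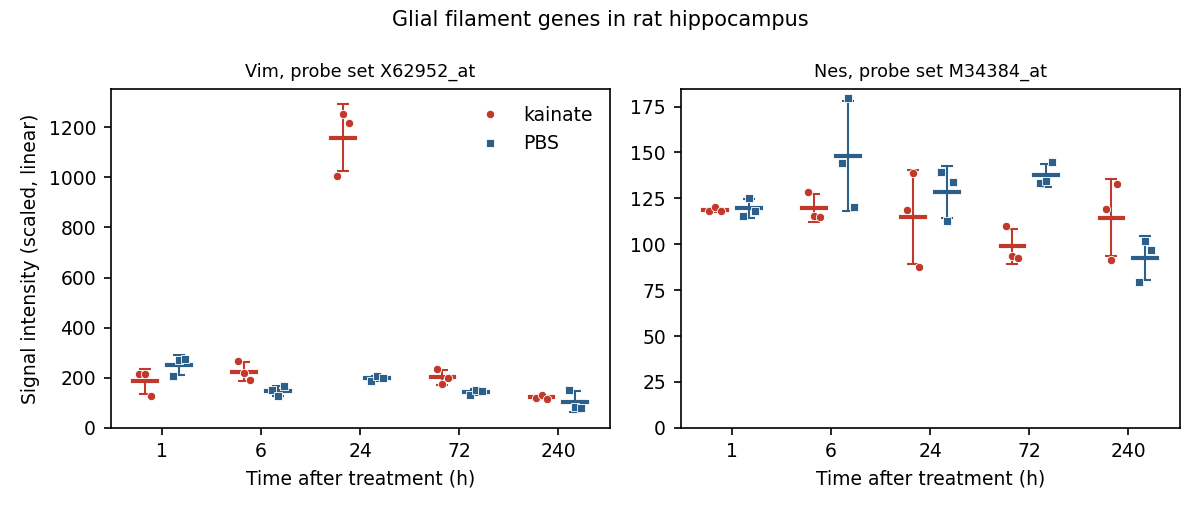
Signal intensity of Vim (left) and Nes (right) on each array by time after treatment in hours, kainate as red circles left of PBS as blue squares, with the mean as a bar and the SD as whiskers (n = 3 arrays each). The 3 kainate arrays of 24 h sit between 1006 and 1252 for Vim, above all other arrays, while Nes shows no such step.

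Nes, the nestin gene, passed at none of the 5 times by its tested probe set, M34384_at. At 24 h its kainate arrays read 118, 139 and 87.4, against 139, 112 and 134 on PBS arrays. The groups overlapped, and the log2 change of −0.18 ± 0.18 (SE, 95% interval −0.55 to 0.18) had an adjusted p of 0.560. At 72 h the kainate arrays read 110, 93.7 and 92.7, against 133, 135 and 145 on PBS arrays. All 3 kainate arrays were below the PBS arrays, and the log2 change of −0.48 ± 0.18 had an adjusted p of 0.566 (unadjusted p = 0.012). It passed with array weights (adjusted p = 0.0443). At 1, 6 and 240 h the groups overlapped, with log2 changes of −0.01, −0.29 and 0.29 and adjusted p from 0.464 to 0.995.

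Of the neuronal members, 2 probe sets of different genes passed as lower at 24 h. Nefh, the heavy neurofilament chain, read 139, 148 and 114 on the kainate arrays by probe set rc_AA818677_at, against 226, 234 and 207 on the PBS arrays. The groups did not overlap, and the means were 134 ± 17.5 after kainate and 222 ± 14.0 after PBS (SD, n = 3 each). The log2 change was −0.74 ± 0.15 (SE, 95% interval −1.04 to −0.44), 1.67-fold lower (limma adjusted p = 0.00148). Without any 1 array of 24 h it lay between −0.82 and −0.63, and the call held. At the other times the log2 changes of this probe set were 0.12 and 0.05 at 1 and 6 h and −0.28 and −0.13 at 72 and 240 h, and none passed.

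The other Nefh probe set, X13804cds_at, did not follow it. At 24 h it read 83.2, 62.4 and 71.4 on the kainate arrays, against 60.6, 61.7 and 54.8 on the PBS arrays, with every kainate array above every PBS array. Its log2 change of 0.29 ± 0.24 (95% interval −0.21 to 0.78) did not pass (adjusted p = 0.484). Within groups the 2 Nefh probe sets were uncorrelated over the 30 arrays (Pearson r 0.00, Spearman rho 0.13). When all probe sets of a gene were averaged, Nefh at 24 h had a log2 change of −0.23 ± 0.15 (adjusted p = 0.364 among 3702 genes), so the fall of Nefh rests on 1 of its 2 probe sets.

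Nefl, the light neurofilament chain on which the other chains assemble, read 1570, 2129 and 1129 on the kainate arrays of 24 h by probe set AF031880_at, against 2175, 1954 and 2330 on PBS arrays. The kainate arrays spread widely, with replicate 3 the lowest and replicate 2 inside the PBS range. The means were 1609 ± 501 after kainate and 2153 ± 189 after PBS (SD, n = 3 each). The log2 change was −0.46 ± 0.15 (95% interval −0.77 to −0.16), 1.38-fold lower (limma adjusted p = 0.0413). This call rested on single arrays: without kainate replicate 3 the log2 change was −0.23 (adjusted p = 0.344). It was also lost without kainate replicate 1 (adjusted p = 0.0813), PBS replicate 1 (0.0898) or PBS replicate 3 (0.141), and with the 6 arrays of 24 h alone (0.224).

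The other Nefl probe set, M25638_s_at, read 529, 634 and 611 after kainate at 24 h, against 618, 712 and 617 after PBS, and its groups overlapped. Its log2 change was −0.14 ± 0.20 (95% interval −0.55 to 0.28, adjusted p = 0.718), and the mean over both Nefl probe sets was −0.30 ± 0.13 (adjusted p = 0.125). Within groups the 2 probe sets had a Pearson r of −0.12 over 30 arrays. At 6 h the signs of both probe sets were the other way. AF031880_at read 2576, 2524 and 2814 after kainate, against 1968, 2544 and 1942 after PBS, and M25638_s_at read 1177, 1075 and 1112 after kainate, against 812, 928 and 832 after PBS. The second pair of groups did not overlap and the first did, with log2 changes of 0.39 (adjusted p = 0.377) and 0.30 (adjusted p = 0.339).

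At 72 h the kainate arrays of Nefl AF031880_at read 1919, 1764 and 1815, against 2353, 2232 and 1983 on PBS arrays, and at 240 h they read 1892, 1666 and 1723, against 1975, 1955 and 2110. At both times every kainate array lay below every PBS array, with log2 changes of −0.25 (adjusted p = 0.846) and −0.20 (adjusted p = 0.628) that did not pass. Kainate at 6 h (2638 ± 155 SD) and kainate at 1 h (2615 ± 217) had the highest means of this probe set, and kainate at 24 h had the lowest. Both of the highest lay apart from the group ranked next, PBS at 72 h. PBS replicate 2 of 6 h, at 2544, lay inside the range of both.

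Nefm, the medium neurofilament chain, passed at no time. At 1 h its kainate arrays read 1032, 900 and 782, against 731, 720 and 672 on PBS arrays, and at 6 h they read 842, 769 and 943, against 714, 736 and 718. Neither pair of groups overlapped, and the log2 changes were 0.35 ± 0.16 (adjusted p = 0.466) and 0.23 ± 0.16 (adjusted p = 0.518). At 24 h the readings were 781, 504 and 666 after kainate, against 811, 645 and 580 after PBS, which overlapped (log2 change −0.07 ± 0.16, adjusted p = 0.828). At 240 h kainate arrays read 512, 553 and 770, against 776, 687 and 837 on PBS arrays, with an overlap and a log2 change of −0.34 ± 0.16 (adjusted p = 0.377).

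Ina, alpha-internexin, was the member that rose at 6 h. By probe set rc_AA875659_s_at its kainate arrays read 749, 700 and 718, against 492, 605 and 518 on PBS arrays. The groups did not overlap, and the means were 722 ± 24.5 after kainate and 538 ± 59.2 after PBS (SD, n = 3 each). The log2 change was 0.43 ± 0.12 (95% interval 0.19 to 0.67), a 1.35-fold rise (limma adjusted p = 0.0293). The value stayed between 0.37 and 0.52 with any 1 array of 6 h left out, but the call was lost without any of the kainate replicates (adjusted p 0.122, 0.0679 and 0.0946) and without PBS replicate 1 (0.111) or 3 (0.118).

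The other Ina probe set, M73049_at, read 639, 609 and 832 after kainate at 6 h, against 454, 375 and 615 after PBS. Kainate replicate 2 and PBS replicate 3 crossed, and the log2 change of 0.54 ± 0.22 did not pass (adjusted p = 0.230). The mean over both Ina probe sets was 0.49 ± 0.15 (adjusted p = 0.0539), and their Pearson r within groups was 0.33 over 30 arrays. At 24 h the 2 probe sets had opposite signs. rc_AA875659_s_at read 646, 659 and 542 after kainate, against 561, 546 and 475 after PBS (log2 change 0.22, adjusted p = 0.225), and M73049_at read 497, 501 and 356 after kainate, against 694, 565 and 491 after PBS (log2 change −0.37, adjusted p = 0.289).

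Prph, peripherin, had group means between 38.7 and 67.2, above the filter level of 35.2, and passed at no time. Its kainate arrays at 24 h read 56.9, 55.8 and 22.3, against 53.3, 47.7 and 53.4 on PBS arrays, with an overlap and a log2 change of −0.31 ± 0.32 (adjusted p = 0.585) that was 0.13 without kainate replicate 3. At 6 h the kainate arrays read 49.2, 47.1 and 49.1, below all of the PBS readings of 63.1, 83.6 and 50.1 (log2 change −0.41 ± 0.32, adjusted p = 0.597). The signals of different probe sets are not on a common scale, so these readings set no order between Prph and the other members.

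**Figure D2:**
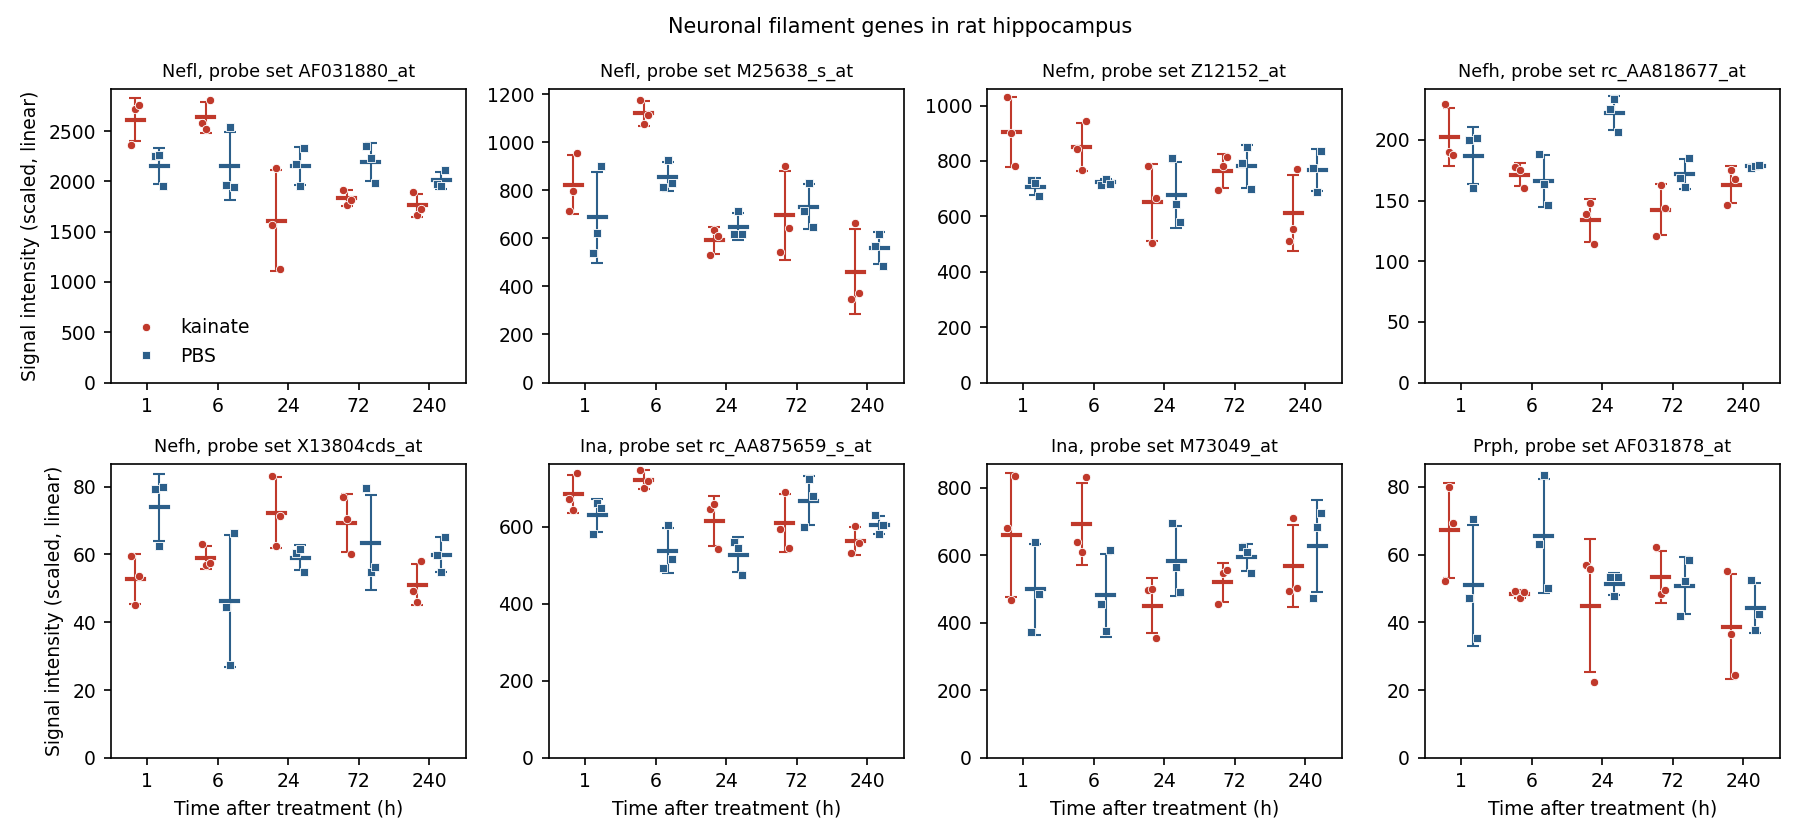
Signal intensity of the 8 neuronal probe sets on each array by time after treatment in hours, 1 panel each with its own linear axis, kainate as red circles left of PBS as blue squares, with means as bars and SD as whiskers (n = 3 arrays each). At 24 h the kainate arrays of Nefh rc_AA818677_at lie between 114 and 148 and its PBS arrays between 207 and 234, while those of Nefh X13804cds_at lie the other way round.

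Set side by side by class, the members differed most at 24 h. At that time 3 of 10 members passed, Vim as higher and Nefl AF031880_at and Nefh rc_AA818677_at as lower, beside 11.3% of all tested probe sets (5.03% higher and 6.3% lower). The 2 glial probe sets had log2 changes of 2.55 and −0.18, so their median of 1.18 describes neither. The 8 neuronal probe sets ranged from −0.74 to 0.29 with a median of −0.22, 6 of 8 below 0, beside a median of −0.05 over all tested probe sets. The groups of 3 of 10 members did not overlap, beside 28.1% of all tested.

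At 6 h 1 of 10 members passed (Ina rc_AA875659_s_at, higher), beside 3.93% of all tested probe sets, or 3.24% as higher. The neuronal median was 0.35 with 7 of 8 above 0, beside −0.11 over all tested, and the groups of 5 of 10 members did not overlap, beside 27.7%. At 1 h 0 of 10 members passed by limma, beside 1.09% of all tested, and 2 had an unadjusted p under 0.05, beside 9.68%. The neuronal median was then 0.28, with 7 of 8 above 0, beside −0.04 over all tested, and the groups of 3 of 10 members did not overlap, beside 10.3%.

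At 72 and 240 h 0 of 10 members passed by limma, beside 0.0476% of all tested at either time, and 2 members at 72 h and 1 at 240 h had an unadjusted p under 0.05, beside 6.33% and 12.2% of all tested. The neuronal medians were −0.12 at 72 h, with 6 of 8 below 0, and −0.21 at 240 h, with 8 of 8 below 0 (range −0.34 to −0.10), beside −0.04 and 0.03 over all tested probe sets. Groups that did not overlap numbered 3 of 10 members at 72 h and 2 of 10 at 240 h, beside 22.1% and 14.5% of all tested.

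**Figure D3:**
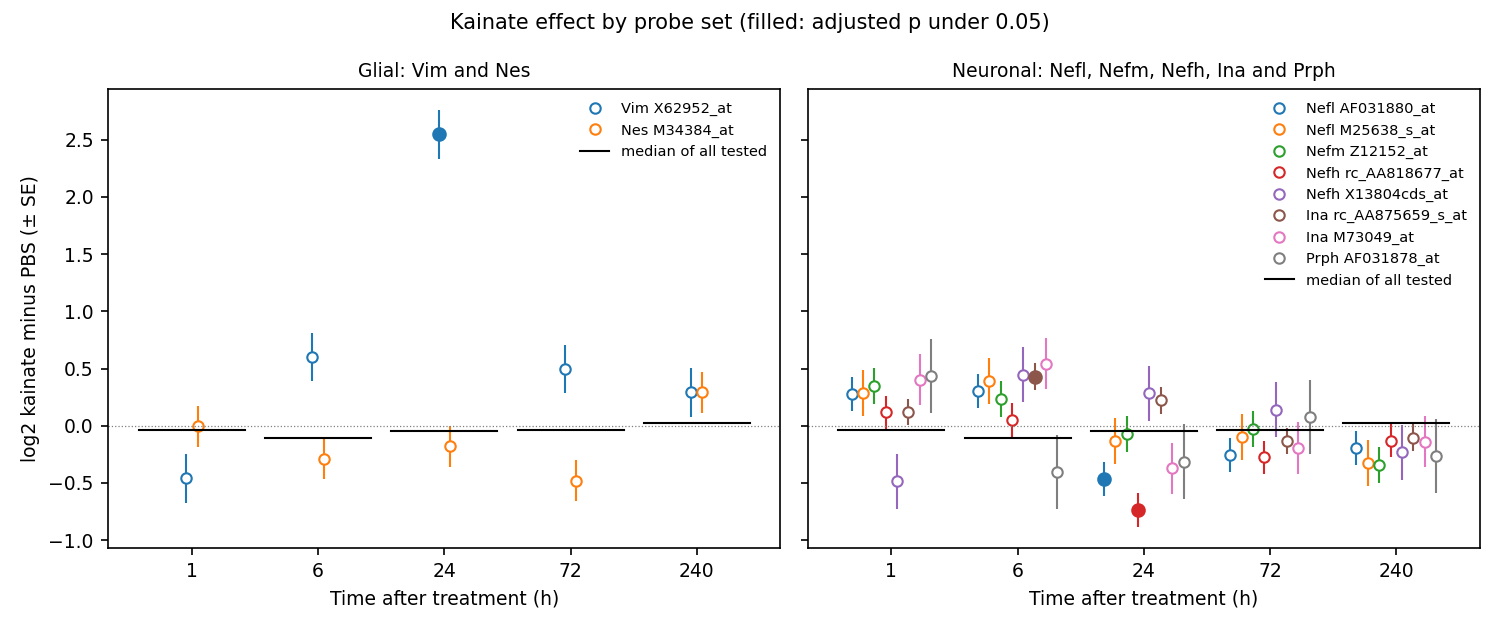
Log2 kainate minus PBS of the 10 tested probe sets against time after treatment in hours, with SE from limma as error bars (n = 3 arrays per group). Glial members are in the left panel and neuronal members in the right. Colours mark the probe sets within a panel and recur between panels. Filled points had a limma adjusted p under 0.05, and black bars mark the median of all tested probe sets. Vim reaches 2.55 at 24 h, and the neuronal probe sets lie between −0.74 and 0.29 at that time.

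The change of the kainate effect between neighbouring times was tested in the same fit. From 6 to 24 h the log2 effect rose by 1.95 ± 0.30 (SE) for Vim (limma adjusted p = 9.86e-05). Over the same interval it fell by 0.77 ± 0.21 for Nefl AF031880_at (adjusted p = 0.0285) and by 0.79 ± 0.21 for Nefh rc_AA818677_at (adjusted p = 0.0237). These 3 of 10 members passed beside 5.24% of all tested probe sets. From 24 to 72 h the Vim effect fell by 2.05 ± 0.30 (adjusted p = 0.000194), the only member among 10 to pass, beside 0.746% of all tested. From 1 to 6 h no member passed by limma, beside 1.09% of all tested, with Vim at 1.06 ± 0.30 (unadjusted p = 0.00152, adjusted p = 0.103). From 72 to 240 h 0 of 10 members passed by limma, beside 0% of all tested, with Nes M34384_at at 0.77 ± 0.25 (unadjusted p = 0.00483, adjusted p = 0.469).

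Both Vim changes passed in every fit that left out 1 array of the times concerned. The Nefl change from 6 to 24 h was lost in 7 of 12 such fits (adjusted p 0.0515 to 0.109), those without kainate replicate 3 or PBS replicate 1 or 3 of 24 h, or kainate or PBS replicate 1 or 3 of 6 h. Without kainate replicate 3 of 24 h it was −0.54. The Nefh change was lost in 5 of 12 (adjusted p 0.0544 to 0.0814), those without kainate replicate 3 or PBS replicate 2 of 24 h, or kainate replicate 1 or 2 or PBS replicate 3 of 6 h, with values from −0.89 to −0.68 over the 12. In an F test over the 5 times, an effect at any time passed for Vim (adjusted p = 2.25e-08), Nefl AF031880_at (0.0471) and Nefh rc_AA818677_at (0.0142), beside 9.33% of all tested probe sets. The same 3 passed the F test for effects that differ between times, beside 6.62%.

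The genes whose pattern over the 30 arrays was most like a member are given as a description, after subtracting the PBS mean of the same time. Arrays of the same time share their PBS mean in this measure. For Vim they were Lgals3, a galectin of activated macrophages (Pearson r 0.93), the non-coding RNA H19 (0.90), and S100a10, a protein of the S100 family (0.90). Next came Hspb1, a small heat shock protein (0.88), and Cavin3, a protein of caveolae (0.87). At 24 h Hspb1 had a signal of 1390 ± 92.9 after kainate and 36.8 ± 11.0 after PBS (SD, n = 3 each), and H19 294 ± 49.9 after kainate, with all 3 PBS arrays at the floor. The 24 h log2 changes of these genes were at least 4.40 (with 2 of 3 PBS arrays of Lgals3 at the floor), at least 4.74, 2.44, 5.28 and 1.58 in the order named, and all 5 passed. They were chosen for likeness to Vim on these same arrays, so their calls at 24 h are no separate result. H19 was at the floor on all 15 PBS arrays, and its log2 change was 0 at 1, 6, 72 and 240 h.

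For Nefh rc_AA818677_at the nearest genes were Itpr1, the calcium release channel of the endoplasmic reticulum (r 0.92), Atp2b2, a calcium pump of the plasma membrane (0.89), Pcmt1, a protein repair methyltransferase (0.88), Ppp3ca, the catalytic subunit of calcineurin (0.88), and Camkv, a kinase-like synaptic protein (0.87). Itpr1 had a signal of 146 ± 28.7 after kainate at 24 h and 296 ± 31.9 after PBS (SD, n = 3 each), and Ppp3ca 898 ± 137 after kainate and 1754 ± 128 after PBS. The log2 changes at 24 h were −1.03, −0.85, −0.77, −0.98 and −0.68 in the order named, and all 5 passed. These genes too were chosen for likeness on the same arrays, so their calls are no separate result.

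Other genes of filaments and axons were read from lists, by 1 probe set a gene. At 1, 72 and 240 h 0 of the 90 measured genes on the 7 lists passed by limma, and 9, 10 and 10 of them, in that order of times, had an unadjusted p under 0.05, beside 9.68%, 6.33% and 12.2% of all tested probe sets. At 6 and 24 h 7 and 27 of the 90 passed, beside 3.93% and 11.3% of all tested. The share at 24 h was 5.03% as higher and 6.3% as lower. The lists were chosen with earlier results known, so these counts are no test. Of 4 measured genes for other intermediate filament proteins, 1 fell at 24 h, the keratin gene Krt10, 2.17-fold, with 1 of 3 kainate arrays at the floor (adjusted p = 0.0308). Of 15 measured linkers, chaperones and kinases that act on filaments, Cryab, a small heat shock protein that binds filaments, rose at 24 h. Hspb1 is on this list and on that of reactive astrocyte genes, but neither count includes it as higher at 6 or 24 h. The probe set that stands for it did not pass as higher. Its probe set rc_AA998683_g_at rose by 3.32 on the log2 scale at 6 h and by 5.28 at 24 h (limma adjusted p = 1.54e-09 and 2.20e-13). On the list of linkers, chaperones and kinases Cdk5r1, the activator of the neurofilament kinase Cdk5, fell 2.51-fold (adjusted p = 0.0111). Its other probe set passed as lower too. Camk2a fell 3.72-fold, by 1 of 2 probe sets and with 1 of 3 kainate arrays at the floor. The median log2 change of this list was 0.03.

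Genes of axonal transport and the axonal cytoskeleton had 1 of 15 measured higher and 5 lower at 24 h, with a median of 0.03. Of all tested probe sets 5.03% passed as higher and 6.3% as lower. Map1a, a microtubule-associated protein, had a signal of 547 ± 24.6 after kainate and 844 ± 46.0 after PBS (SD, n = 3 each) and fell 1.54-fold (adjusted p = 0.00226), by 1 of 2 probe sets. Stmn1, a tubulin-binding protein, had 1049 ± 228 after kainate and 1552 ± 154 after PBS and fell by 0.58 on the log2 scale (adjusted p = 0.00477). The other 3 that fell were Dync1i1, Gap43 and Uchl1, and Tubb2b, a tubulin, rose.

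Reactive astrocyte genes had 5 of 15 measured higher and 0 lower at 6 h, with a median log2 change of 0.33. At 24 h 7 of 15 were higher and 0 lower, with a median of 0.74. Of all tested probe sets 3.24% passed as higher at 6 h and 5.03% at 24 h. The list name assigns no cell, and which cells of this whole tissue made these RNAs was not tested. At 6 h Ptgs2, the inducible cyclooxygenase, rose 8.19-fold and Socs3, an inhibitor of cytokine signalling, 7.99-fold, and the other 3 were Cd44, Stat3 and Timp1. At 24 h S100a10 had a signal of 747 ± 93.3 after kainate and 137 ± 8.56 after PBS (5.41-fold, adjusted p = 1.29e-06), and Timp1, an inhibitor of metalloproteinases, 610 ± 82.2 after kainate and 163 ± 18.9 after PBS (3.74-fold). The general astrocyte markers had 0 of 12 passing at 6 h, with a median of −0.08. At 24 h they differed in direction among themselves, with 1 of 12 higher and 3 lower and a median of −0.26. Fabp7, the fatty acid binding protein of radial glia, had 994 ± 70.3 after kainate and 276 ± 33.0 after PBS and rose 3.61-fold (adjusted p = 1.25e-09). Aldoc, the aldolase of astrocytes, had 1137 ± 174 after kainate and 2004 ± 52.5 after PBS and fell 1.78-fold (adjusted p = 8.80e-05), and Ntsr2 and S100b fell as well.

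Neuron markers had 0 of 17 measured higher and 3 lower at 24 h, with a median of −0.20, beside −0.22 for the neuronal filament probe sets. Of all tested probe sets 5.03% passed as higher and 6.3% as lower at 24 h. Cplx1, a regulator of synaptic vesicle release, fell 1.73-fold (adjusted p = 0.0327) and Nrgn, a calmodulin-binding protein of dendrites, 1.49-fold (adjusted p = 0.00314), and the third was Vsnl1. Neural progenitor and cell cycle genes, the setting in which nestin is best known, had 3 of 15 measured higher and 1 lower at 24 h, with a median of 0.33. Ccnd1, cyclin D1, had 217 ± 24.4 after kainate and 99.5 ± 25.4 after PBS and rose 2.21-fold, by 2 of 5 probe sets (adjusted p = 0.00140). Mcm6, a replication helicase subunit, rose 2.03-fold by 1 of 3 probe sets with overlapping groups, Pcna rose, and Hes5, a target of Notch signalling, fell. At 6 h Id2 rose 1.74-fold and Hes5 fell 2.04-fold, beside 3.93% of all tested probe sets that passed at that time.

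**Figure D4:**
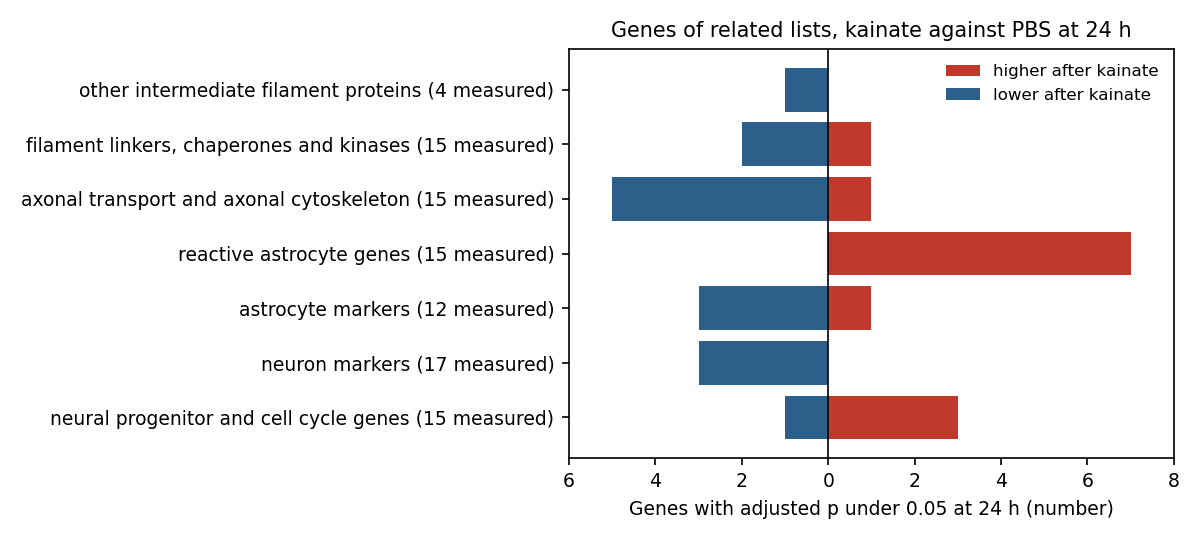
Number of genes with a limma adjusted p under 0.05 at 24 h in each of 7 lists (measured genes in brackets), those higher after kainate to the right in red and those lower to the left in blue. The reactive astrocyte genes show 7 higher and 0 lower, and the axonal genes 1 higher and 5 lower.

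Markers of other cells were read at 24 h, and the lists differed. Of all tested probe sets 5.03% passed as higher and 6.3% as lower at that time. Microglia and macrophage markers had 4 of 8 measured higher and 0 lower (C1qb, Cd74, Ctss and Lgals3). Their summed signal was 2051 to 2374 on kainate arrays and 1041 to 1269 on PBS arrays. Of 10 annotated on the arrays, Itgam, Csf1r, Cd74 and Lgals3 lay above the filter level on none of the 15 PBS arrays. Cd74 and Lgals3 thus passed the filter only through kainate arrays, while Itgam and Csf1r were left out. The filter therefore favoured their calls as higher, and the count of 4 is no test of these markers. Endothelial and vascular wall markers had 2 of 12 higher (Slc2a1 and Tagln) and 1 lower (Slco1a4), with sums of 1240 to 1293 after kainate and 1133 to 1222 after PBS. Fibroblast and meningeal markers had 0 of 9 passing, with sums of 1538 to 1925 after kainate and 1806 to 2218 after PBS. The part of these cells in the Vim rise was not tested.

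Markers of hippocampal principal neurons had 0 of 11 measured higher and 6 lower at 24 h (Camk2a, Gria1, Grik4, Itpka, Nrgn and Ppp3ca), with sums of 4631 to 5217 on kainate arrays and 7358 to 7566 on PBS arrays. Gria1 passed as lower by 1 of 3 tested probe sets and Grik4 by 1 of 2 (limma adjusted p = 0.0471). Camk2a passed by 1 of 2, with 1 of 3 kainate arrays at the floor. Nrgn passed by 2 of 2, and Itpka and Ppp3ca had 1 tested probe set each. Beside the falls of Nefh and Nefl, fewer cells of a type and less RNA per cell cannot be told apart in these whole-tissue samples. Oligodendrocyte markers had 0 of 6 passing, with sums of 6988 to 7568 after kainate and 8178 to 8320 after PBS, and sensory and motor neuron markers 0 of 5. Choroid plexus and ependymal markers had 0 of 3 passing, with sums of 2541 to 5432 after kainate and 990 to 3474 after PBS, and those of neighbouring regions had 1 of 10 higher, Cartpt. The beta-actin 3 prime to 5 prime log2 ratio at 24 h was 0.79 ± 0.14 after kainate and 0.69 ± 0.08 after PBS, and that of Gapdh 0.05 ± 0.03 after kainate and −0.09 ± 0.23 after PBS (SD, n = 3 each). That of hexokinase was 1.27 ± 0.19 after kainate and 1.53 ± 0.67 after PBS, with single arrays from 1.04 to 2.29. The part of RNA quality in the member results was not tested.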

How the data were processed

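Total RNA of rat hippocampus was measured on 30 Affymetrix arrays in 10 groups of 3, and groups follow the labels. The values deposited by the authors are linear signal intensities, 1 for every probe set on an array, and the sources used here do not state their computation from the scans. Their trimmed means (2% left out at each end) were already alike, 150.1 to 150.2. Precision is limited by the number of arrays.

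From the deposited intensity values, arrays were brought to 1 trimmed mean, raised to a floor at the 20th percentile over non-control probe sets (signal 10.95) and taken to log2. Probe sets above the 40th percentile (35.2) on at least 3 arrays were tested, which kept 6303 of 8740 (72.1%). Names came from the platform annotation: 7006 probe sets had 1 gene, 308 several and 1426 none listed. A model with a mean per group was fitted to all 30 arrays with limma 3.58.1 (R 4.3.3), with empirical Bayes moderation and an intensity trend (20 residual and 7.26 prior degrees of freedom). P-values were adjusted over all tested probe sets by Benjamini-Hochberg, with a threshold of 0.05. Tables were made with Python 3.11.15 and pandas 2.3.3 and plots with matplotlib 3.10.9. The procedure was tested on simulated data.

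The members and gene lists were chosen with earlier results of these data known. All member probe sets are named, and from each list of related genes at each time the 2 passing genes with the largest change. Other genes named where a count was small, and those of the cell type lists, were chosen after their values were seen. A list gene stands by its probe set with the highest mean. The pattern genes are the 5 with the highest Pearson r to the glial and the neuronal member with the smallest p of an effect at any time. Alternatives were a lower floor, no filter, a pseudocount of 16, quantile normalization, fewer arrays in the fit, array weights, no trend, the mean of all probe sets, a replicate block and leaving out each array.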

Additional observations from a re-analysis of the deposited data

Results flagged for a closer look

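The kainate effect of 3 members differed between times in the test of the difference itself, with the change in log2 kainate minus PBS between neighbouring times as the measure. For Vim it changed by 1.95 ± 0.30 (SE) between 6 and 24 h (limma adjusted p = 9.86e-05) and by −2.05 ± 0.30 between 24 and 72 h (adjusted p = 0.000194). For Nefl AF031880_at it changed by −0.77 ± 0.21 between 6 and 24 h (adjusted p = 0.0285), and for Nefh rc_AA818677_at by −0.79 ± 0.21 (adjusted p = 0.0237). Of 12 fits that left out 1 array, 7 lost the Nefl call and 5 the Nefh call. The other probe sets of these genes did not pass over that interval (limma adjusted p = 0.318 for Nefl M25638_s_at and 0.834 for Nefh X13804cds_at). The arrays of 6 and 72 h were more alike than those of the other times, and the arrays of 1 and 240 h were, like those of 24 h, outside these 12. At 1 and 240 h the log2 effects were −0.46 and 0.29 for Vim, beside 2.55 at 24 h. They were 0.12 and −0.13 for Nefh rc_AA818677_at, beside −0.74, and 0.28 and −0.20 for Nefl AF031880_at, beside −0.46. The effect at 24 h was not set against that at 1 or 240 h in a test of its own. The part of the array sets in these changes was not tested.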

How the results depend on the processing

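Vim at 24 h, both Vim changes between times, and Nefh rc_AA818677_at at 24 h kept direction and call in all alternatives run on single probe sets, while averaging the 2 Nefh probe sets ended the Nefh call (−0.23, adjusted p = 0.364). Of 830 member values under alternatives, 779 kept theirs, 32 lost the call, 4 gained one and 15 turned direction. The Nefl AF031880_at call at 24 h was also lost without the filter (adjusted p = 0.0611), without the trend (0.0713) and with arrays of 1, 24 and 240 h alone (0.104), and the Ina rc_AA875659_s_at call at 6 h with arrays of 6 h alone (0.0914) and without the trend (0.0565). The Nefl change from 6 to 24 h was lost with arrays of those times alone (0.113) and without the trend (0.0582), and the Nefh change with arrays of those times alone (0.0559). With array weights Nefl AF031880_at at 6 h gained a call (0.0301). The cause was not tested. Turned directions, none of which passed, were Nes at 1 h (0.0359 with quantile normalization, 0.00657 with array weights, and −0.0323 to 0.0274 leaving out arrays) and Nefm at 24 h (0.0105 with array weights, −0.21 to 0.10 leaving out arrays). Leaving out arrays also turned Nes at 24 h (−0.33 to 0.00267), Nefl M25638_s_at at 72 h (−0.30 to 0.0643), Nefm at 72 h (−0.11 to 0.0362), Nefh rc_AA818677_at at 6 h (−0.0383 to 0.15), and Prph at 24 h (−0.54 to 0.13), 72 h (−0.0583 to 0.18) and 240 h (−0.56 to 0.0320). Counts over all tested probe sets moved by more than 1.5 times as follows. With arrays of the time alone 31 passed at 1 h and 256 at 24 h, against 69 and 714, and 0 at 72 and 0 at 240 h, against 3 and 3. With arrays of the same set of times the counts were 43 at 1 h, 481 at 6 h (against 248) and 343 at 24 h, then 5 for 72 h and 0 for 240 h. Array weights gave 633 at 6 h, 153 at 72 h, 922 for an effect at any time (against 588) and 1755 for PBS groups (against 1065). Without the filter 10 passed at 72 h, 13 at 240 h and 1 for the change from 72 to 240 h, the lower floor gave 1 at 240 h, and no trend 0 at 72 h. Leaving out 1 array gave 163 to 279 at 6 h and 336 to 715 at 24 h, then 0 to 1 for 72 h and 0 to 19 for 240 h, with 210 to 428 for the change from 6 to 24 h and 31 to 51 for that from 24 to 72 h (against 330 and 47). The lowest came without kainate replicate 3 at both 6 and 24 h, and 431 passed at 24 h without PBS replicate 3. With all probe sets of each gene averaged, linkers, chaperones and kinases had 2 at 6 h (against 0), reactive astrocyte genes 1 and progenitor and cell cycle genes 1 at 1 h (against 0), and the last list 2 at 24 h (against 4). Replicate numbers did not pair the arrays: the r of same-numbered deviations lay between −0.07 and 0.17, over 0.1 in 3 of 15 pairs, and the same-numbered array correlated best in 7 of 15. With a replicate block 0 passed at 72 h and 25 for the change from 24 to 72 h, and Nefl AF031880_at lost its calls at 24 h (0.0757) and from 6 to 24 h (0.0594).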

Other observations

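The PBS arrays themselves differed between times in Vim. Its mean signal after PBS was 252 ± 39.3 (1 h), 148 ± 20.8 (6 h), 197 ± 10.3 (24 h), 143 ± 10.3 (72 h) and 104 ± 41.8 (240 h; SD, n = 3 each), and the F test among the 5 PBS groups passed (limma adjusted p = 0.000931), beside 16.9% of all tested probe sets. None of the other 9 tested members passed that F test, and Nes M34384_at came nearest (adjusted p = 0.0532).

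Within groups, over 30 arrays, probe sets of the same gene had a Pearson r of −0.12 for Nefl, 0.00 for Nefh and 0.33 for Ina. Between neurofilament chains the Pearson r was −0.25 between Nefl AF031880_at and Nefm, −0.01 between Nefl AF031880_at and Nefh rc_AA818677_at and 0.10 between Nefm and Nefh rc_AA818677_at. The Spearman rho was −0.10, −0.41 and 0.06 in the same order. These are descriptions across arrays that share a table and a scaling, by 1 probe set a gene, and with so little correlation between probe sets of 1 gene they do not bear on whether the chains vary together.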
